A study of Mus musculus with 8 samples.

Results

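The genes described here are 10 receptors and co-receptors of the bone morphogenetic protein (BMP) pathway, out of 16502 genes named on the array. They were chosen by name for what they do, with earlier results of these data known. They were 4 type I receptors (Acvr1, Acvr1b, Bmpr1a and Bmpr1b), 3 type II receptors (Acvr2a, Acvr2b and Bmpr2) and 3 co-receptors (Eng, Rgma and Ror2), each read by 1 probe. RNA came from C2C12 cells, a line of mouse myoblasts that can switch to the osteoblast lineage when BMP-2 is given, and was hybridized to 8 Illumina bead arrays. All cultures were kept without serum for 4 h, the last 2 h of it with 0.05% DMSO (the vehicle) or with 40 µM dynasore, a small molecule that blocks the GTPase dynamin and with it the pinching off of endocytic vesicles. The groups, with 2 arrays each, were DMSO and Dynasore without ligand and their counterparts with it, BMP-2+DMSO and BMP-2+Dynasore, and BMP-2 was then given at 30 nM for 6 h in the groups that carry its name, with dynasore or DMSO still present and still without serum. The question was whether the messages of the receptors themselves differ when dynamin is blocked, with or without ligand.

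BMPs bind a complex of type I and type II receptors, both serine/threonine kinases. The type II receptor phosphorylates the type I receptor, which phosphorylates Smad1, Smad5 and Smad8, and these enter the nucleus with Smad4. The complex is taken up by clathrin- and caveolin-dependent routes, which both need dynamin, and co-receptors such as the glycosylphosphatidylinositol-anchored Rgma or the transmembrane glycoprotein Eng change how ligand reaches it.

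A probe was called above background on an array when its deposited value exceeded the mode of the dim probes by 1.645 standard deviations, and 10244 of 18138 probes were tested because they passed this on 2 arrays or more. BMP-2+DMSO replicate 2 stood apart from the other arrays. Its background mode was 242 deposited units against -1.20 to 45.2 on the others, 7429 probes were above background against 8874 to 9464, and its log2 values correlated with those of BMP-2+DMSO replicate 1 at r = 0.775, where the replicates of the other groups reached 0.978 to 0.995. The methods left 1 BMP-2+DMSO array out of the significance test, and the fit described here kept replicate 2 and left out replicate 1; counts with replicate 1 in its place and with all 8 arrays are given for each comparison of the receptors. Of 6 myoblast markers with a probe, 3 or 4 were above background on 7 arrays and 1 on BMP-2+DMSO replicate 2, and their summed linear signal was 8745 and 9181 in DMSO, 7218 and 10647 in BMP-2+DMSO, 5193 and 5103 in Dynasore, and 4739 and 3695 in BMP-2+Dynasore. In Dynasore relative to DMSO, 3 of the 4 tested myoblast genes were lower, Myod1 (-1.75), Des (-0.83) and Itga7 (-0.69), where 19.5% of all probes were. Myog, the other tested gene, was not called, and with all 8 arrays 0 of the 4 were. Whether this lower myoblast signal with dynasore plays a part in the receptor values was not tested, and in RNA from whole cultures fewer cells of a type and less RNA per cell cannot be told apart. Of 5 osteoblast markers 0 to 2 were above background, with summed signals of 1229 and 1806 in BMP-2+DMSO and 265 to 298 elsewhere. None of 7 endothelial, 2 macrophage and 3 adipocyte markers with a probe was above background on any array.

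Of the 10 receptor probes, 9 were tested. Acvr1, Acvr2b, Bmpr1a, Bmpr1b and Ror2 were above background on all 8 arrays, Eng on 7, Bmpr2 and Rgma on 5 and Acvr1b on 4. Acvr2a, a type II receptor shared by activins and BMPs, was above background on 0 of 8 arrays and was not tested. Its normalized signal lay between 4.68 and 6.33 on the log2 scale, and these values are those of a probe that was not measured well above background.

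**Figure D1:**
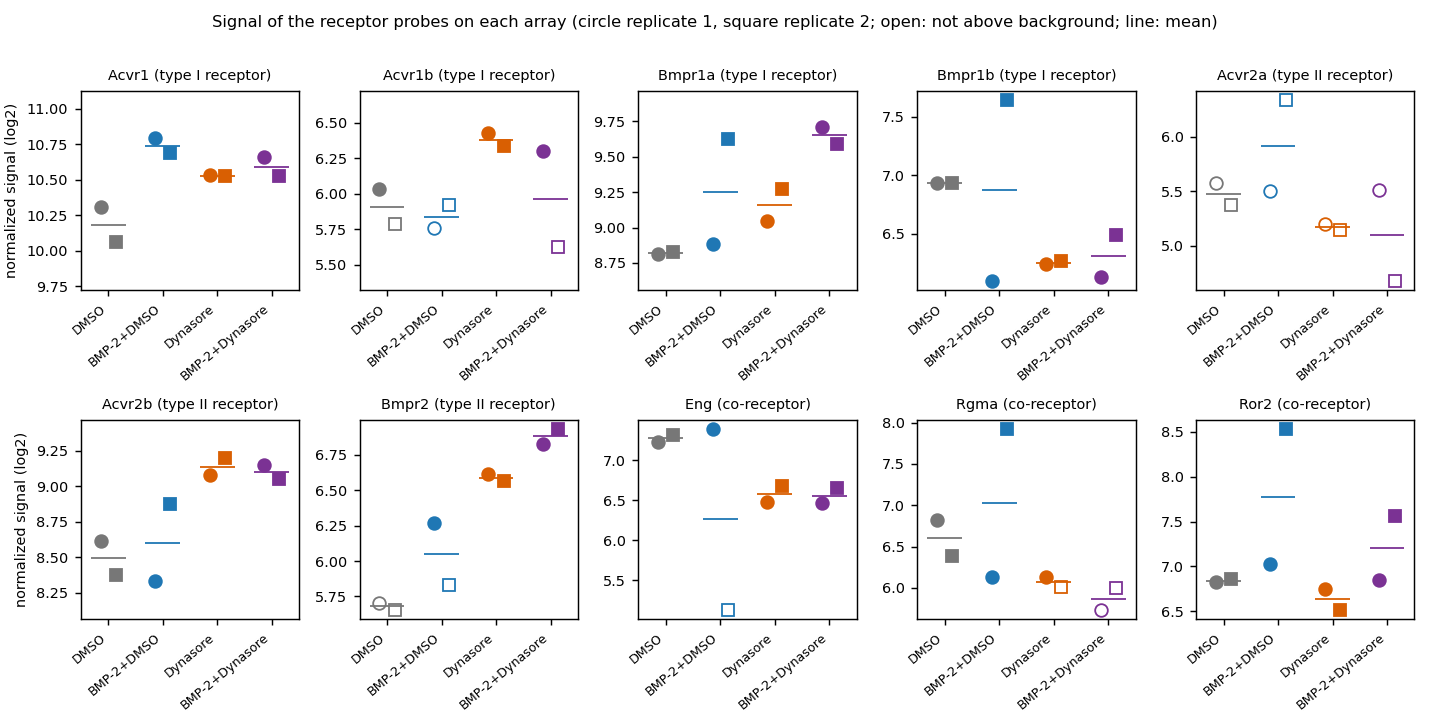
Normalized signal (log2, vertical axis) of each of the 10 receptor probes on each of the 8 arrays, by treatment group (horizontal axis); circles are replicate 1, squares replicate 2, each panel has its own scale, open symbols lie at or below the background limit and lines are means of 2 arrays. Bmpr2 and Acvr2b sit higher on all 4 arrays with dynasore than on the 4 without, and Rgma sits lower by a narrow margin near background (6.127 against 6.137). The BMP-2+DMSO replicates lie 1.51 to 2.25 log2 units apart for Bmpr1b, Eng, Rgma and Ror2.

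In the 7-array fit, receptors were called in both directions with dynasore, as were many of all tested probes. In Dynasore relative to DMSO, 3 of the 9 tested receptors were higher (Acvr1, Acvr2b and Bmpr2), where 17.9% of all tested probes were higher, and 2 were lower (Bmpr1b and Eng), where 19.5% of all probes were lower, at an adjusted p below 0.05 (limma, Benjamini-Hochberg over all 10244 probes). In BMP-2+Dynasore relative to DMSO, 4 were higher (those 3 and Bmpr1a) against 19.6% of all probes, and 3 were lower (Bmpr1b, Eng and Rgma) against 18.9%. Both comparisons share the DMSO arrays. The median change of the 9 receptors was 0.34 in Dynasore and 0.36 in BMP-2+Dynasore on the log2 scale, with a median over all probes of -0.003 and -0.005. The counts of 5 and 7 were the same when the fit held the first BMP-2+DMSO replicate instead of the second. Neither comparison uses a BMP-2+DMSO array, so this swap leaves the log2 changes as they are and is no check of them. With all 8 arrays in the fit, whose estimate of the spread then includes the distance between the BMP-2+DMSO replicates, 0 receptors were called in Dynasore (1 at an unadjusted p below 0.05), where 3.15% of all probes were called in either direction, and 1 in BMP-2+Dynasore (Bmpr2), where 3.55% were.

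In the normalized values, without a test, every one of the 4 arrays with dynasore lay above every one of the 4 without it for Bmpr2 and Acvr2b, as for 12.8% of all tested probes. They lay below for Rgma, as for 14.3%, but by a narrow margin near background (6.127 with dynasore against 6.137 without). The deposited Rgma value was 37.2 on Dynasore replicate 1 and 28.9 on BMP-2+DMSO replicate 1, so this order rests on the normalization. The same split by BMP-2 separated 0 of the 9 receptors, where 2.03% of all probes were higher on every array with BMP-2 and 1.56% lower.

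Among the type II receptors, Bmpr2, the type II receptor dedicated to BMPs, was higher with dynasore. Its normalized log2 signal was 5.70 and 5.66 in DMSO, 6.27 and 5.83 in BMP-2+DMSO, 6.61 and 6.56 in Dynasore, and 6.83 and 6.93 in BMP-2+Dynasore. The probe was above background on neither DMSO array and on all 4 arrays with dynasore, so the DMSO level is an upper bound. The log2 difference was 0.91 ± 0.17 (SE, n = 2 arrays per group; adjusted p = 0.00194), at least 1.42-fold, in Dynasore and 1.20 ± 0.17 (adjusted p = 0.000313), at least 1.73-fold, in BMP-2+Dynasore. These "at least" values set the mean of the measured group against the higher of the dim probe's own value and the lowest signal among probes above background on each array. Bmpr2 kept its call in both comparisons whichever of the 6 arrays of the other 3 groups was left out, with adjusted p between 0.000437 and 0.0214 in Dynasore, and with all 8 arrays its adjusted p was 0.0949 in Dynasore and 0.0433 in BMP-2+Dynasore.

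Acvr2b, a type II receptor that binds activins, myostatin and several BMPs, read 8.62 and 8.38 in DMSO, 8.33 and 8.87 in BMP-2+DMSO, 9.08 and 9.20 in Dynasore, and 9.15 and 9.05 in BMP-2+Dynasore. The lowest array with dynasore was above the highest without it. The log2 rise was 0.64 ± 0.14 (adjusted p = 0.00427), or 1.56-fold, with dynasore alone and 0.60 ± 0.14 (adjusted p = 0.00582), or 1.52-fold, with BMP-2 and dynasore. The call in Dynasore was lost without DMSO replicate 2 (0.52, adjusted p = 0.0606) or Dynasore replicate 2 (0.58, adjusted p = 0.0603), and that in BMP-2+Dynasore without DMSO replicate 2 (0.48, adjusted p = 0.0760).

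Bmpr2 and Acvr2b were the receptors whose 4 arrays with dynasore all lay above the 4 without. Eng was the co-receptor called lower than DMSO in both Dynasore and BMP-2+Dynasore, and the type I receptor Bmpr1b was called lower in both too. The promoter windows of Bmpr2, Acvr2b and Eng are shown. Each runs from 250 bases before to 50 after the start site in the RefSeq annotation (GRCm38.p6), and capitals mark GGCGCC, a GC-rich Smad element, and GTCTG or its reverse complement CAGAC, the Smad box.
Bmpr2, chr1:59764029-59764328, plus strand: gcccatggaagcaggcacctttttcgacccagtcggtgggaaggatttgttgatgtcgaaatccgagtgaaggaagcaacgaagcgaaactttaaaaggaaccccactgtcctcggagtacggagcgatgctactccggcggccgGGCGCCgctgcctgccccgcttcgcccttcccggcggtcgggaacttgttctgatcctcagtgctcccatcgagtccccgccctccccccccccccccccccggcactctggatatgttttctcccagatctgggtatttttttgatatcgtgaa
Acvr2b, chr9:119401928-119402227, plus strand: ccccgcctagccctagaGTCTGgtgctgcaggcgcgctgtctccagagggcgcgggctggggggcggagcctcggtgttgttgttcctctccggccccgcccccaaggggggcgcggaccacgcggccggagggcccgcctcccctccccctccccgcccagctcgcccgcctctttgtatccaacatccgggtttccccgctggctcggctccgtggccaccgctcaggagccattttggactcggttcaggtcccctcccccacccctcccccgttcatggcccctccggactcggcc
Eng, chr2:32646345-32646644, plus strand: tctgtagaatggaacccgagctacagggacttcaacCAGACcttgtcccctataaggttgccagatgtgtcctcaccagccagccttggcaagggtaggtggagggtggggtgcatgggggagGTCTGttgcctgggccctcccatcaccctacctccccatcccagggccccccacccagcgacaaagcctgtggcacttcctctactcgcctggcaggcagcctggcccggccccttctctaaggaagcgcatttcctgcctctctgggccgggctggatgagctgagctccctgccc
The RefSeq table matched 9 of the 10 genes, with 11 windows because Bmpr1b has 3. GGCGCC was in 4 of the 11 windows (Acvr1b, Bmpr1a, Bmpr2 and Ror2) and in 11.9% of all 32851 windows of this length. GTCTG on either strand was in 5 of the 11 windows, from 4 genes (Acvr2a, Acvr2b, Bmpr1b and Eng), and in 49.6% of all windows. No member window held both motifs, so that no matches overlapped. The receptors that were higher with dynasore differed among themselves in this respect, with GGCGCC in Bmpr2, GTCTG in Acvr2b and neither in Acvr1. A match describes the letters and not a bound site.

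Among the type I receptors, Acvr1, Bmpr1a and Bmpr1b, which phosphorylate the BMP-responsive Smads, went different ways. Acvr1 read 10.31 and 10.06 in DMSO, 10.79 and 10.69 in BMP-2+DMSO, 10.53 and 10.53 in Dynasore, and 10.66 and 10.52 in BMP-2+Dynasore. All 6 treated arrays were above both DMSO arrays. The log2 difference was 0.35 ± 0.12 (adjusted p = 0.0472) in Dynasore and 0.41 ± 0.12 (adjusted p = 0.0224) in BMP-2+Dynasore, or 1.27-fold and 1.33-fold. The first of these lay near the threshold and was lost without DMSO replicate 2 (0.22, adjusted p = 0.323), Dynasore replicate 1 (0.34, adjusted p = 0.186) or Dynasore replicate 2 (0.35, adjusted p = 0.179), and the second without DMSO replicate 2 (0.28, adjusted p = 0.199).

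Bmpr1a, the main type I receptor for BMP-2, was higher in BMP-2+Dynasore than in DMSO. It read 8.81 and 8.83 in DMSO, 8.88 and 9.62 in BMP-2+DMSO, 9.05 and 9.27 in Dynasore, and 9.71 and 9.59 in BMP-2+Dynasore. Both BMP-2+Dynasore arrays were above every array of DMSO and Dynasore, whereas the BMP-2+DMSO replicates fell on either side of the Dynasore pair. The log2 change in BMP-2+DMSO was 0.80 with replicate 2 and 0.06 with replicate 1, so a rise particular to the combination was not shown. The log2 rise in BMP-2+Dynasore relative to DMSO was 0.83 ± 0.13 (adjusted p = 0.000543), or 1.78-fold, and held whichever array was left out of the fit, and the difference in Dynasore was 0.34 ± 0.13 (adjusted p = 0.0656). Leaving out either BMP-2+Dynasore array brought the latter past the threshold (adjusted p = 0.0200 in both cases).

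Bmpr1b, a type I receptor with high affinity for growth and differentiation factors as well as BMPs, fell. It read 6.93 on both DMSO arrays, 6.10 and 7.64 in BMP-2+DMSO, 6.23 and 6.26 in Dynasore, and 6.13 and 6.49 in BMP-2+Dynasore. All 4 arrays with dynasore were below both DMSO arrays, and the BMP-2+DMSO replicates were the lowest and the highest of the 8. Outside DMSO the deposited values were not far over the background limit. They were 36.1 against 33.3 and 80.6 against 62.0 in BMP-2+Dynasore, and 26.7 against 24.6 and 281 against 258 in BMP-2+DMSO. The log2 difference was -0.68 ± 0.18 (adjusted p = 0.0126) in Dynasore and -0.63 ± 0.18 (adjusted p = 0.0191) in BMP-2+Dynasore. The Dynasore call was lost without any one of the 4 arrays of the comparison (-0.70 to -0.67, adjusted p between 0.0686 and 0.0784), and that in BMP-2+Dynasore without DMSO replicate 1 (-0.63, adjusted p = 0.0996), DMSO replicate 2 (-0.63, adjusted p = 0.100) or BMP-2+Dynasore replicate 1 (-0.45, adjusted p = 0.0544).

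Acvr1b, a type I receptor for activins and nodal that acts through Smad2 and Smad3, did not pass the test. It read 6.03 and 5.79 in DMSO, 5.76 and 5.92 in BMP-2+DMSO, 6.43 and 6.34 in Dynasore, and 6.30 and 5.62 in BMP-2+Dynasore, and was above background on 4 of these arrays (DMSO replicate 1, both of Dynasore and BMP-2+Dynasore replicate 1). The BMP-2+Dynasore replicates were 0.68 apart. The log2 difference from DMSO was 0.47 (95% interval -0.06 to 1.01, adjusted p = 0.155) in Dynasore, where of the 6 arrays left out in turn it passed only without BMP-2+Dynasore replicate 2 (adjusted p = 0.0499), and 0.05 (-0.48 to 0.58, adjusted p = 0.892) in BMP-2+Dynasore.

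The co-receptors Eng and Rgma had lower values with dynasore than in DMSO, and Rgma was called lower in BMP-2+Dynasore only. Eng (endoglin), an accessory receptor for TGF-beta and some BMPs that is best known from endothelial cells, read 7.23 and 7.31 in DMSO, 7.38 and 5.13 in BMP-2+DMSO, 6.47 and 6.67 in Dynasore, and 6.47 and 6.65 in BMP-2+Dynasore. The 4 dynasore arrays lay close together and below DMSO and BMP-2+DMSO replicate 1, and BMP-2+DMSO replicate 2, the array with the high background, was the only one on which Eng was not above background. The log2 difference was -0.70 ± 0.18 (adjusted p = 0.00959) in Dynasore and -0.71 ± 0.18 (adjusted p = 0.00830) in BMP-2+Dynasore, or 1.62-fold and 1.64-fold lower. The Dynasore call was lost without DMSO replicate 1 (-0.74, adjusted p = 0.0517), DMSO replicate 2 (-0.66, adjusted p = 0.0765) or Dynasore replicate 1 (-0.60, adjusted p = 0.0959), and that in BMP-2+Dynasore without DMSO replicate 2 (-0.67, adjusted p = 0.0704). The 7 endothelial markers, Pecam1, Cdh5 and Kdr among them, were not above background on any array, with summed linear signals of 295 to 348.

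Rgma, a co-receptor for BMP-2 and BMP-4 and a ligand of neogenin, read 6.83 and 6.38 in DMSO, 6.14 and 7.92 in BMP-2+DMSO, 6.13 and 6.01 in Dynasore, and 5.74 and 6.00 in BMP-2+Dynasore. It was above background on the 4 arrays without dynasore and, of those with it, on Dynasore replicate 1 alone. The log2 difference was -0.54 ± 0.20 (adjusted p = 0.0613) in Dynasore, which did not pass, and -0.74 ± 0.20 (adjusted p = 0.0147), at least 1.45-fold lower, in BMP-2+Dynasore. The Dynasore difference passed the threshold without DMSO replicate 2 (-0.76, adjusted p = 0.0482), BMP-2+Dynasore replicate 1 (-0.54, adjusted p = 0.0179) or BMP-2+Dynasore replicate 2 (-0.54, adjusted p = 0.0190), and the call in BMP-2+Dynasore was lost without DMSO replicate 1 (-0.52, adjusted p = 0.157).

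Ror2, a receptor tyrosine kinase for Wnt5a that also binds Bmpr1b, read 6.83 and 6.86 in DMSO, 7.02 and 8.53 in BMP-2+DMSO, 6.75 and 6.52 in Dynasore, and 6.85 and 7.56 in BMP-2+Dynasore. Neither dynasore comparison passed, with -0.21 (95% interval -0.71 to 0.30, adjusted p = 0.527) in Dynasore and 0.36 (-0.14 to 0.87, adjusted p = 0.248) in BMP-2+Dynasore. The 2 arrays with the highest Ror2 signal were replicate 2 of both BMP-2 groups. Without BMP-2+Dynasore replicate 1 the second difference was 0.72 (adjusted p = 0.00301).

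**Figure D2:**
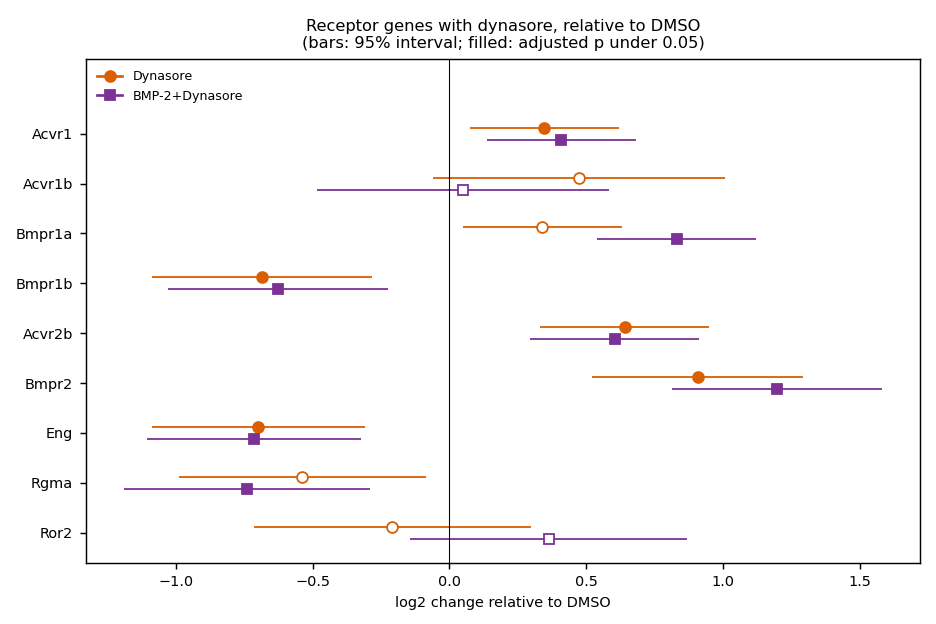
Log2 change relative to DMSO (horizontal axis) of the 9 tested receptors in Dynasore (circles) and BMP-2+Dynasore (squares) from the 7-array fit; bars are 95% intervals and filled symbols have an adjusted p below 0.05. Bmpr2 (0.91 and 1.20, fitted against DMSO arrays on which its probe was not above background) and Acvr2b (0.64 and 0.60) lie above 0 in both, and Bmpr1b, Eng and Rgma lie below 0 in both.

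BMP-2 on top of dynasore changed no receptor message that passed the test. In BMP-2+Dynasore relative to Dynasore, 0 of 9 receptors were called by limma in either direction, where 0.654% of all probes were higher and 0.215% lower. At an unadjusted p below 0.05 there were 2 receptors, Bmpr1a at 0.49 (95% interval 0.20 to 0.78, adjusted p = 0.178) and Ror2 at 0.57 (0.07 to 1.08, adjusted p = 0.402). The intervals of the other 7 reached no further than -0.96 and 0.68. With all 8 arrays 0 receptors were called (0 at an unadjusted p below 0.05), as were 0.0195% of all probes. Without BMP-2+Dynasore replicate 1, Bmpr1a (0.43, adjusted p = 0.0448), Ror2 (0.92, adjusted p = 0.00150) and Acvr1b (-0.76, adjusted p = 0.0434) passed.

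BMP target genes were higher in the same comparison. Of 10 tested BMP target genes, 7 were higher in BMP-2+Dynasore than in Dynasore, among them Id1 (2.33), Id2 (1.58), Id3 (2.89), Hey1 (3.09) and Smad6 (3.23), which encode inhibitors of differentiation, a Hes-related repressor and an inhibitory Smad. Of the 10, 2 were called with all 8 arrays, Id3 and Hey1 (adjusted p = 0.0135 for each). In BMP-2+DMSO relative to DMSO, Id2 rose by 2.15 with replicate 2 and 2.35 with replicate 1, Id3 by 3.43 with either, and Dlx3, an osteogenic homeobox gene, by 1.24 and 0.96. Over the list, 8 of 10 tested target genes were higher and 1, Smad6, was lower (-0.80, adjusted p = 0.00457) with replicate 2, 10 were higher with replicate 1, and 4 were higher with all 8 arrays.

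For BMP-2+DMSO relative to DMSO, the receptor calls depended on which replicate was used and, with replicate 2, on how the arrays were scaled. With replicate 2 (n = 1 array against 2), 5 of 9 receptors were higher (Acvr1, Bmpr1a, Bmpr1b, Rgma and Ror2) and 1 lower (Eng), where 41.4% of all probes were higher and 28.1% lower. With replicate 1, only Acvr1 was called, where 4.63% of all probes were called in either direction, and with all 8 arrays 0 were (1 at an unadjusted p below 0.05), where 0.205% were. Acvr1 was therefore the one receptor called with either replicate alone: its log2 rise was 0.51 ± 0.15 (adjusted p = 0.0115) with replicate 2, 0.61 ± 0.15 (adjusted p = 0.0493) with replicate 1 and 0.56 with both.

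For Eng, Rgma and Bmpr1b, called with replicate 2, the replicates gave opposite signs, and so they did for Acvr2b (0.38 and -0.16) and Acvr1b (0.01 and -0.15), which neither replicate called. Eng differed from DMSO by -2.14 ± 0.22 (adjusted p = 1.27e-05), at least 1.55-fold lower, with replicate 2 and by 0.11 ± 0.21 (adjusted p = 0.930) with replicate 1. Rgma gave 1.31 with replicate 2 and -0.47 with replicate 1, and Bmpr1b 0.71 and -0.84. On replicate 2 the deposited values were 297 for Rgma and 281 for Bmpr1b, against a background limit of 258. Both rises rest on aligning that array to the others: with no further normalization both turned negative, and with equal medians Bmpr1b did. Ror2 (1.69 and 0.18) and Bmpr1a (0.80 and 0.06) had positive values with both and passed with replicate 2 only. Leaving out DMSO arrays also removed calls in the fit with replicate 2: Bmpr1b went without DMSO replicate 1 (0.71, adjusted p = 0.0569) or DMSO replicate 2 (0.71, adjusted p = 0.0582), and Acvr1 without DMSO replicate 2 (0.38, adjusted p = 0.0784). Acvr2b (0.38, adjusted p = 0.0712) passed without BMP-2+Dynasore replicate 1 (adjusted p = 0.0292) or replicate 2 (adjusted p = 0.0292). Bmpr2 (0.15, adjusted p = 0.551) and Acvr1b (0.01, adjusted p = 0.977) did not pass with replicate 2.

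**Figure D3:**
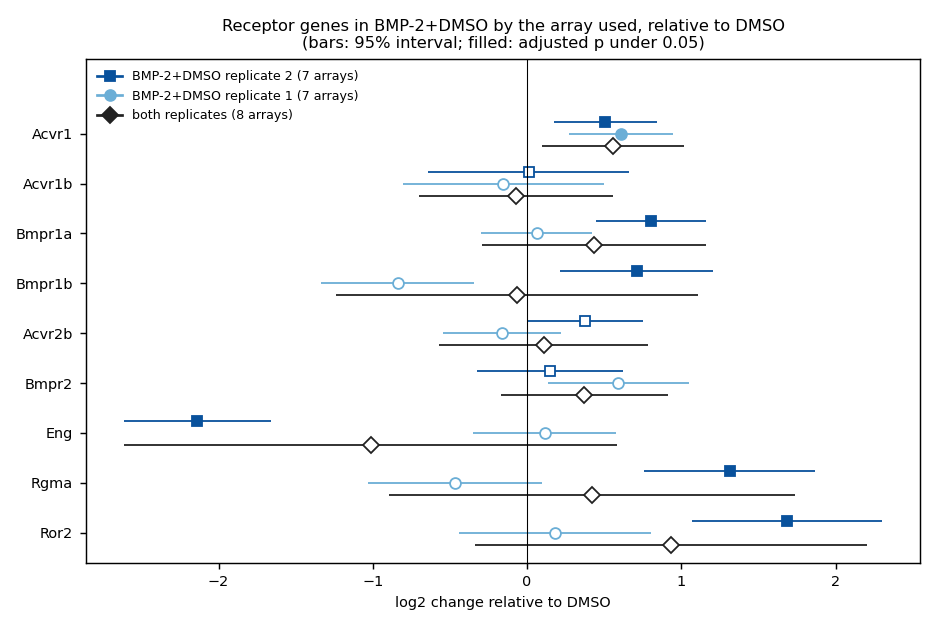
Log2 change in BMP-2+DMSO relative to DMSO (horizontal axis) of the 9 tested receptors with BMP-2+DMSO replicate 2 (squares), replicate 1 (circles) or both (diamonds); bars are 95% intervals and filled symbols have an adjusted p below 0.05. Eng ranges from -2.14 to 0.11 and Rgma from -0.47 to 1.31, and Acvr1 is between 0.51 and 0.61 throughout.

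Set against BMP-2+DMSO, dynasore left Bmpr2 higher with either replicate. When BMP-2+Dynasore was compared with replicate 2 of BMP-2+DMSO, 2 receptors were higher (Bmpr2 and Eng), where 28.8% of all probes were, and 3 lower (Bmpr1b, Rgma and Ror2), where 38.4% were. Against replicate 1, 3 were higher (Acvr2b, Bmpr1a and Bmpr2) and 1 lower (Eng), where 28.9% of all probes were called in either direction, and with all 8 arrays 0 were called (1 at an unadjusted p below 0.05), where 3.59% were. Bmpr2 gave 1.05 ± 0.21 (adjusted p = 0.00129), at least 1.18-fold, against replicate 2 and 0.61 ± 0.21 (adjusted p = 0.0487) against replicate 1. Eng changed sign, with a fitted difference of 1.43 ± 0.22 (adjusted p = 0.000180) against replicate 2 and -0.83 ± 0.21 (adjusted p = 0.0130) against replicate 1. Eng was not above background on replicate 2 (deposited value 229, limit 258), and its level there allowed no lower bound above 1-fold, so the call against replicate 2 has no measured size. The value against replicate 1 is close to the difference of Eng from DMSO given above. Acvr2b (0.77, adjusted p = 0.00720) and Bmpr1a (0.77, adjusted p = 0.00519) were higher against replicate 1 only. Rgma was at least 3.60-fold lower than replicate 2 (-2.05) and differed by -0.27 from replicate 1. The size against replicate 2 rests on the normalized level of that array, where the deposited Rgma value was 297 over a limit of 258.

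The test of whether the BMP-2 response itself differed with dynasore called 3 receptors with replicate 2: Eng was higher (23.2% of all probes were), and Rgma and Ror2 were lower (32.9% of all probes were). With replicate 1 it called 0 (2 at an unadjusted p below 0.05), where 1.07% of all probes were called in either direction, and with all 8 arrays 0 (0 at an unadjusted p below 0.05), as for 0% of all probes.

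Other lists of the pathway held genes with wide changes with dynasore, where 17.9% of all probes were higher and 19.5% lower. Of 13 other receptors and co-receptors of the superfamily, 6 were tested and in Dynasore 1 was higher and 1 lower. Neo1, neogenin, which binds Rgma, read 10.44 and 10.32 in DMSO, 10.82 and 10.67 in BMP-2+DMSO, 12.24 and 12.10 in Dynasore, and 12.15 and 12.09 in BMP-2+Dynasore. Its log2 rise was 1.79 ± 0.11 (adjusted p = 7.26e-07; 0.00510 with all 8 arrays) in Dynasore and 1.73 ± 0.11 in BMP-2+Dynasore, where Rgma was lower. Tgfbr2, the type II receptor for TGF-beta, read 11.74 and 11.75 in DMSO, 10.60 and 10.74 in BMP-2+DMSO, 10.26 and 10.38 in Dynasore, and 9.70 and 9.83 in BMP-2+Dynasore. Its log2 change was -1.42 ± 0.11 in Dynasore (adjusted p = 4.98e-06; 0.0137 with all 8 arrays) and -1.98 ± 0.11 in BMP-2+Dynasore, and both BMP-2+DMSO arrays were also below both DMSO arrays. This type II receptor was lower on the arrays where Bmpr2 and Acvr2b were higher.

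Of 33 ligands, 11 were tested and in Dynasore 1 was higher and 4 lower. The lower ones were Tgfb3 (-2.69), Bmp4 (-1.75), Inhbb (-1.58) and Tgfb2 (-1.31), which encode TGF-beta ligands, a BMP and an activin subunit. Inhba, the activin A subunit, was the tested ligand called in BMP-2+Dynasore relative to Dynasore (1.53, adjusted p = 0.000117). Of 20 extracellular antagonists, 10 were tested and in Dynasore 2 were higher and 4 lower (3 lower with replicate 1 in the fit). Grem1 (gremlin, which binds BMP-2 and BMP-4) rose by 2.55 and Fst (follistatin, which binds activins) by 1.58, and Nbl1 (-1.74) and Bmper (-1.21) fell.

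Of 23 Smads and intracellular partners of the receptors, 19 were tested and in Dynasore 5 were higher and 3 lower. Trib3, a pseudokinase that binds the tail of Bmpr2 and is also induced by cell stress, had a log2 rise of 5.37 ± 0.14 (adjusted p = 2.41e-09; 0.00406 with all 8 arrays), and Smurf1, a ubiquitin ligase for receptor-regulated Smads, one of 1.73. Smad5 (-1.43) and the inhibitory Smad6 (-1.12) were lower. Of 20 genes of the Wnt5a and Ror2 pathway, 11 were tested and in Dynasore 2 were higher and 3 lower. Fzd2, a Wnt receptor, lay between 10.20 and 11.05 on the 4 arrays without dynasore and at or below 7.18 on the 4 with it. Its log2 change was -3.48 ± 0.14 (adjusted p = 3.75e-08; 0.00533 with all 8 arrays), while Fzd7 (0.80) and Vangl1 (0.55) were higher and Mapk8 (-0.74) lower. Wnt5a, the ligand of Ror2, and Ror1, its closest relative, were not tested. Of 15 genes of dynamin, clathrin and caveolin, 12 were tested and in Dynasore 1 was higher and 2 lower. The targets of the inhibitor, Dnm1 (0.09, adjusted p = 0.773) and Dnm2 (0.03, adjusted p = 0.909), did not pass, Cav1 (-1.76), the caveolae scaffold, and Ap2m1 (-0.44) fell, and Rab5a (1.18), a GTPase of early endosomes, rose. Dnm3 was not tested.

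In BMP-2+Dynasore relative to DMSO, 2 of the other receptors were higher and 1 lower, 2 ligands higher and 4 lower, 2 antagonists higher and 4 lower, 9 Smads or partners higher and 2 lower, 3 genes of the Wnt5a and Ror2 pathway higher and 3 lower, and 1 of the dynamin list higher and 3 lower, where 19.6% of all probes were higher and 18.9% lower. These counts were, with all 8 arrays, 1 and 1, 0 and 2, 1 and 0, 1 and 0, 0 and 1, and 0 and 1, in the same order. Of the BMP target genes, 4 were higher and 3 lower in Dynasore, while BMP-2+Dynasore had 7 that rose and 0 that fell. With all 8 arrays 1 target gene rose in Dynasore and 5 in BMP-2+Dynasore, and 0 fell. With all 8 arrays the genes called in Dynasore were 2 of the other receptors, 1 ligand, 2 antagonists, 1 Smad or partner, 1 gene of the Wnt5a and Ror2 pathway and 1 of the dynamin list. The median log2 change in Dynasore was 0.33 for the other receptors, -0.26 for ligands, -0.25 for antagonists, 0.04 for Smads and partners, -0.01 for the Wnt5a and Ror2 pathway and -0.17 for the dynamin list, beside -0.003 for all tested probes.

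**Figure D4:**
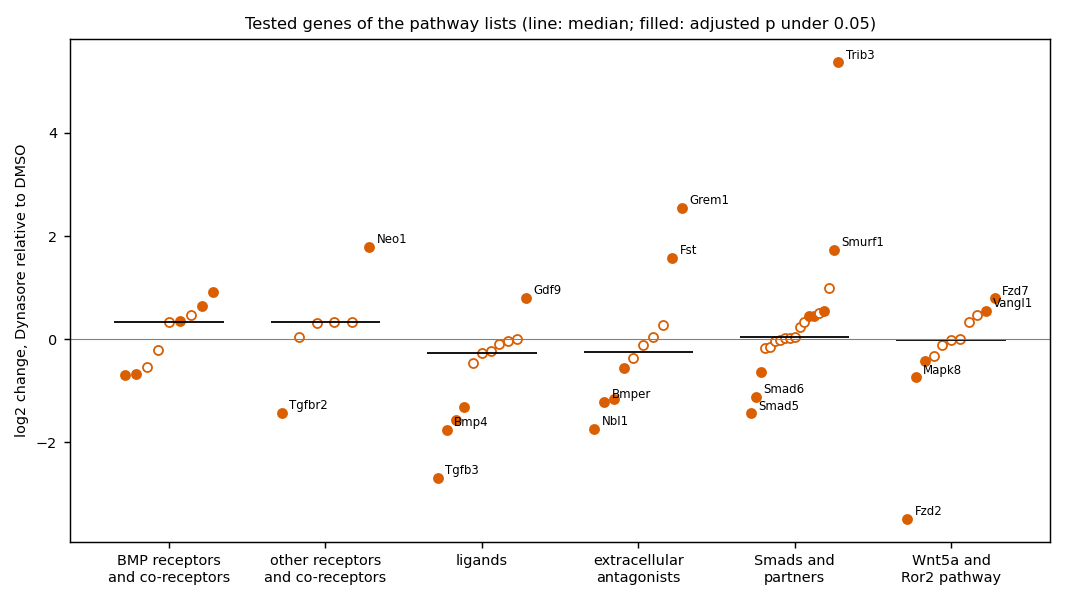
Log2 change in Dynasore relative to DMSO (vertical axis) of the tested genes of each list (horizontal axis), from the 7-array fit; each point is a gene, filled where the adjusted p was below 0.05, and lines are medians. The BMP receptors and co-receptors lie between -0.70 and 0.91, while Trib3 reaches 5.37 and Fzd2 -3.48.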

How the data were processed

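The deposited values were Illumina MouseRef-8 bead array intensities, which the authors background-subtracted and normalized by rank invariance in BeadStudio 3.0 (per the submitters' processing notes), so that values below 0 occur. The 8 named columns were used, and 16 further value columns of the table, which match no sample by name, were not. Probes were named by the platform annotation (16886 with 1 symbol, 0 with several, 1252 with none). Intensities were corrected with normexp (offset 16), quantile normalized and put on the log2 scale, which shrinks changes of dim probes and aligns the array with the high background to the others. All 10244 tested probes were fitted in R 4.3.3 with limma 3.58.1 (trend and robust) over 4 groups without a block. The fit used 7 arrays, 3 residual degrees of freedom, and the script was tested on simulated data. The methods do not say which BMP-2+DMSO array was left out. It was taken to be replicate 1, because earlier work on these data matched the study's supplementary values to replicate 2. That match is not shown here. A group of 1 array is assumed to vary like the others. The methods call the duplicates biological, and with so few of them the estimates are imprecise. P-values measure the spread between cultures only within groups that have 2 arrays in the fit. Comparisons with BMP-2+DMSO as 1 array therefore take their spread from the other groups. The BMP-2+DMSO replicates correlated less (r = 0.775) than those of the other groups (0.978 to 0.995), so the p-values of these comparisons leave out that distance. In the lists a gene was read by its brightest probe. Every receptor was named, and of each list up to 4 called genes with the widest change, plus Id1, Id2, Id3, Dlx3 and the dynamins. Members and lists were chosen with earlier results of these data known. Alternatives were other background corrections, normalizations, filters, variance models and array choices, the methods' one-way test with its 1.4-fold limit, and leaving out each array. Promoter windows came from the RefSeq table, read by symbol.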

Additional observations from a re-analysis of the deposited data

Results flagged for a closer look

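The BMP-2 response differed between dynasore and vehicle by limma's interaction test for 3 receptors, all with BMP-2+DMSO replicate 2 as the only array of its group. The response of Eng with dynasore minus that with DMSO was 2.12 on the log2 scale (adjusted p = 0.000155), that of Rgma -1.52 (adjusted p = 0.00285) and that of Ror2 -1.12 (adjusted p = 0.0226). Eng was not above background on that array (deposited value 229, limit 258), so that its fitted difference has no measured size. In the fit that held replicate 1, Eng gave -0.13 (adjusted p = 0.894), Rgma 0.27 (adjusted p = 0.816) and Ror2 0.39 (adjusted p = 0.752). In the fit of all 8 arrays 0 receptors were called. The Ror2 call was also lost without DMSO replicate 1 (-1.10, adjusted p = 0.0688), DMSO replicate 2 (-1.13, adjusted p = 0.0672) or Dynasore replicate 1 (adjusted p = 0.0770), and Acvr1 passed without DMSO replicate 1 (-0.57, adjusted p = 0.0486) or BMP-2+Dynasore replicate 1 (-0.51, adjusted p = 0.0263), as did Bmpr1b without BMP-2+Dynasore replicate 2 (-0.83, adjusted p = 0.00992).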

How the results depend on the processing

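Counts of called receptors depended most on the BMP-2+DMSO arrays. With all 8 arrays 0 were called in BMP-2+DMSO and 0 in Dynasore relative to DMSO, 1 in BMP-2+Dynasore relative to DMSO, 0 against BMP-2+DMSO and 0 in the interaction, and Bmpr1b in BMP-2+DMSO turned to -0.065 (adjusted p = 0.936). When replicate 1 stood in for replicate 2, the counts were 1 in BMP-2+DMSO and 0 in the interaction. Called values that turned were then Bmpr1b (-0.84), Eng (0.11) and Rgma (-0.47) in BMP-2+DMSO relative to DMSO, Bmpr1b (0.21), Eng (-0.83) and Ror2 (0.18) when both BMP-2 groups were compared, and Eng (-0.13), Rgma (0.27) and Ror2 (0.39) in the interaction. Among uncalled values, Acvr2b (-0.16) and Acvr1b (-0.15) in BMP-2+DMSO and Bmpr1b (0.90), Bmpr1a (0.43), Acvr2b (0.13) and Bmpr2 (-0.30) in the interaction also changed sign. A fit of 6 arrays with neither, chosen after seeing the data, kept 26 values on their side of the threshold and lost 1 call, Acvr1 in Dynasore.

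Scaling moved the median of all tested probes in BMP-2+DMSO relative to DMSO from 0.22 to -0.50 with no further normalization and to -0.04 with equal medians. With no further normalization 3 receptors were called there (0 higher, 3 lower), Acvr1 was at -0.026, Acvr2b at -0.89, Bmpr1a at -0.12, Bmpr1b at -0.71 and Rgma at -0.12, and in the interaction Acvr2b was at 0.82, Bmpr1a at 0.60 and Ror2 at 0.12. With equal medians 2 were called there (Bmpr1b was at -0.25) and 1 in the interaction, and 1 receptor instead of 0 was split by BMP-2. The Acvr1 call in Dynasore was lost under both scalings (adjusted p = 0.321 and 0.332), with no filter (0.0744), without trend and robust (0.0957) and with the replicate block (0.0519). With only probes above background on all 8 arrays, 5 receptors were left, of which 4 were called in BMP-2+Dynasore relative to DMSO and 2 relative to BMP-2+DMSO.

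Leaving out each array gave 4 to 7 calls in BMP-2+DMSO and 2 to 8 in Dynasore relative to DMSO, 3 to 7 in BMP-2+Dynasore relative to DMSO, 5 to 5 relative to BMP-2+DMSO, 0 to 3 relative to Dynasore and 2 to 4 in the interaction. No called value changed sign. The shares of all probes are not set beside these counts, those under the scalings and the filter above, or those with the replicate block below. The counts therefore cannot tell a shift of the receptors from one of the whole array.

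Same-numbered arrays did not deviate together in every pair of groups (r between -0.28 and 0.50), so the numbers were not taken to pair the arrays. The value of 0.50 was between BMP-2+DMSO and BMP-2+Dynasore. The replicate 2 arrays of these groups also had the highest background modes, 242 and 45.2 deposited units. With the replicate number as a block, 53 values in the 7-array fit kept their side of the threshold and 1 lost its call, and with all 8 arrays the block left 0 receptors called relative to DMSO (0 in BMP-2+DMSO, 0 in Dynasore, 0 with both agents), 0 relative to BMP-2+DMSO and 0 in the interaction (Bmpr1b in BMP-2+DMSO at -0.065). By the methods' one-way test 7 of 9 receptors had an unadjusted p below 0.05 and 5 an adjusted one, where 6586 and 5429 of all 10244 probes had. The causes of these changes were not tested. Signals near background limit Acvr1b, Acvr2a, Bmpr1b, Bmpr2 and Rgma.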
